A study of Mus musculus with 24 samples.

Results

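Bone marrow of mice labelled as lacking both Cyp1b1 and Cyp1a1 (double-null) was compared with bone marrow of mice lacking Cyp1a1, with both groups treated with benzo[a]pyrene (BP). All arrays of these 2 groups were taken and no oil-treated array entered the difference, which left 5 of the 24 arrays of the series, 2 double-null and 3 Cyp1a1-null. The donors of both groups were female C57BL/6j mice aged 6 weeks that had received 50 mg/kg BP by injection into the abdominal cavity, and marrow was taken 12 h later. Both groups therefore share the loss of Cyp1a1, the agent, the dose and the time, and differ by label in Cyp1b1. Each array carried a pool of 9 samples, without a statement in the labels that each came from its own mouse, and the sources used here do not give how the alleles were made. Each array measured total RNA of the sample in the Cy3 channel against a common reference in the Cy5 channel, RNA pooled from wild-type (WT) marrow after oil, so that every level is a log ratio, log2(Cy3/Cy5). Of 28106 genes on the array, 21966 had a Cy3 signal well above background on at least 2 of the 5 arrays and were tested.

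BP is a polycyclic aromatic hydrocarbon that binds the aryl hydrocarbon receptor (AhR), a transcription factor that pairs with ARNT and switches on genes such as Cyp1a1, Cyp1b1, Ahrr and Tiparp. CYP1A1 and CYP1B1 oxidise BP, which both clears it and forms reactive diol epoxides that damage DNA. CYP1B1 is the CYP1 enzyme best known from marrow stroma, and polycyclic hydrocarbons are known to deplete developing B cells there.

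The arrays of the 2 groups lay on different slides. Both double-null arrays shared a slide with the double-null oil array. Cyp1a1-null replicates 1 and 2 shared a slide with the Cyp1b1-null oil arrays, and replicate 3 lay on the slide of the Cyp1a1-null oil arrays, which had been read with another version of Feature Extraction, the scanner's software. Genotype and slide cannot be told apart in the difference between the groups. Across 21351 genes the log ratios of Cyp1a1-null replicates 1 and 2 correlated at r = 0.88, and those of replicate 3 with them at 0.27 and 0.31. The double-null arrays correlated at 0.70 with each other and at 0.36 to 0.62 with the Cyp1a1-null arrays. The labels do not say whether replicates came from separate animals, so p-values measure only a spread between arrays. The model pooled that spread over 23 arrays of 10 groups, and a fit to only the 5 arrays called 0 genes.

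The brightest spots carried no usable ratio. For 527 of the tested genes the mean signal of a channel reached 60000, or was marked as saturated, on at least 1 of the 5 arrays. Of the 193 genes in this state on all 5 arrays, 116 were called lower and 0 higher, and their median log ratio was 0.42, 0.52 and 1.30 in the Cyp1a1-null arrays against -0.37 and -0.11 in the double-null arrays. The ratio of such a spot is only a bound, and these genes get no direction here. Of 34 ribosomal protein genes 30 were among them, as were 11 of 28 erythroid genes and 9 of 19 genes of neutrophil maturation, including the haemoglobin genes Hba-a2 and Hbb-bt. The plot of the difference against spot brightness shows these genes bending away from the rest.

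**Figure D1:**
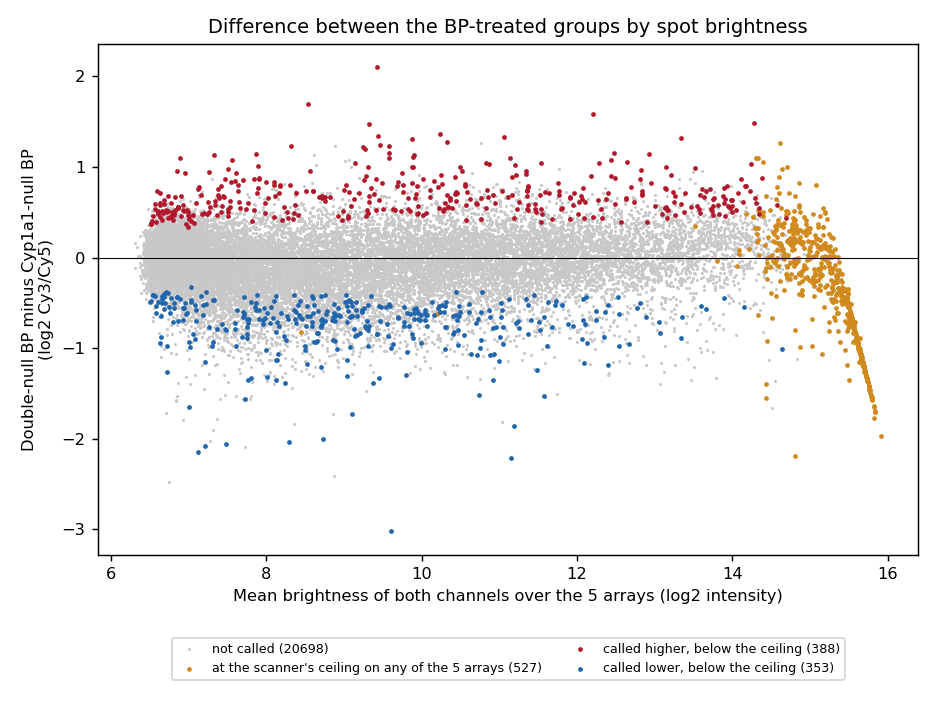
Difference between the 2 groups (double-null minus Cyp1a1-null, log2 Cy3/Cy5) against the mean brightness of both channels over the 5 arrays (log2 intensity), 1 point per tested gene. The 527 genes at the scanner's ceiling (orange) bend downwards at the right edge, while the 388 genes called higher and the 353 called lower below the ceiling lie along the whole range of brightness.

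The genes that define the 2 genotypes were read first. Cyp1a1, labelled as deleted in both groups, was not well above background on any of the 5 arrays, and its log ratios lay between -0.33 and 0.11. In the same series it was well above background on 10 of 24 arrays. Cyp1b1 had log ratios of 1.57 and 1.11 in the arrays labelled double-null and of 0.24, 0.79 and 0.90 in the Cyp1a1-null arrays. The groups did not overlap, and the arrays labelled as lacking Cyp1b1 were the higher ones. The difference was 0.69 ± 0.21 (standard error of the limma fit, adjusted p = 0.0692), with a 95% interval of 0.26 to 1.13. The double-null oil array stood at 1.57 and the Cyp1a1-null oil arrays between -0.28 and -0.02. A second, dimmer probe of Cyp1b1 gave 1.23 and 1.01 in the double-null arrays against -0.43, 0.02 and -0.27, a difference of 1.35. In the Cyp1b1-null arrays the brighter probe stood at 0.51 and 1.08 after oil and at 0.14 and 0.06 after dimethylbenz[a]anthracene (DMBA). The WT DMBA arrays lay between 0.37 and 0.48 for that probe. The dimmer probe stood at 0.16 and 0.37 after oil and at 0.03 and -0.03 after DMBA, with the WT DMBA arrays between -0.17 and -0.003. In the double-null arrays the level of Cyp1b1 thus went against the label, unless its probes lie outside the deleted part, which the sources used here do not give. "Double-null" below means the arrays so labelled, and each direction is drawn from that label.

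Of the genes of the AhR battery, Nqo1 passed the test between the BP-treated genotypes, and Ahrr, Spint1 and Tiparp, which stood above their oil arrays in both genotypes, did not. Ahrr, the AhR repressor that feeds back on the receptor, had log ratios of 2.87 and 2.55 in the double-null arrays and of 2.42, 3.07 and 2.23 in the Cyp1a1-null arrays. The groups overlapped, and the oil arrays lay far below both, at -0.06 in the double-null and between -0.14 and 0.16 in the Cyp1a1-null group. The difference was 0.14 with a 95% interval of -0.49 to 0.77 (limma, adjusted p = 0.818). Spint1, an inhibitor of serine proteases, stood at 3.25 and 2.87 against 3.25, 3.54 and 3.13, with a difference of -0.25 (interval -1.01 to 0.51). Tiparp, a mono-ADP-ribosyltransferase that dampens AhR, stood at 0.73 and 0.27 against 0.54, 0.55 and 0.82, with a difference of -0.14 (interval -0.47 to 0.20). The intervals of Ahrr and Spint1 leave room for a change of 0.77 and 1.01 in log ratio, so the data do not show that the genotypes responded alike.

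Of 16 members of the AhR battery tested, all below the ceiling, 1 was called higher and 0 lower, beside 1.81% of all 21439 genes below the ceiling called higher and 1.65% called lower. The median difference of these members was -0.03, against -0.04 over all genes, and with Cy3 alone it was 0.42 against -0.24. The called member was Nqo1, a quinone reductase that both AhR and NRF2 switch on. Its log ratios were 1.13 and 1.40 in the double-null arrays and 0.51, 0.48 and 0.65 in the Cyp1a1-null arrays, and the groups did not overlap. The difference was 0.72 ± 0.15 (limma, adjusted p = 0.0124). Nqo1 stood at 0.98 in the double-null oil array and between -0.11 and 0.04 in the Cyp1a1-null oil arrays, so the groups differed by 1.03 without BP too (adjusted p = 0.00411). The subunits of the receptor, Ahr and Arnt, differed by -0.16 and 0.67 with adjusted p of 0.641 and 0.0884.

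The promoters of Cyp1b1 and of 3 members of the battery are shown because AhR with ARNT binds the core motif GCGTG, which reads CACGC on the other strand. The windows run from 250 bases before to 50 bases after the start of the gene in RefSeq's annotation of GRCm38.p6, written along the gene's strand, with each match of the motif on either strand in capitals. They lie at chr17:79715012-79715311 (minus strand) for Cyp1b1, chr13:74292282-74292581 (minus) for Ahrr, chr3:65528197-65528496 (plus) for Tiparp and chr8:107403156-107403455 (minus) for Nqo1.
Cyp1b1: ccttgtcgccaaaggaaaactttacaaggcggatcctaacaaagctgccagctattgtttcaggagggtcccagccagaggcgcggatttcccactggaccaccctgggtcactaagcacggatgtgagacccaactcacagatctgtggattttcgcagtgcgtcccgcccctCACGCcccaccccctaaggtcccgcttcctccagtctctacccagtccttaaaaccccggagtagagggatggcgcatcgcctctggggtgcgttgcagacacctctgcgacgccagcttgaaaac
Ahrr: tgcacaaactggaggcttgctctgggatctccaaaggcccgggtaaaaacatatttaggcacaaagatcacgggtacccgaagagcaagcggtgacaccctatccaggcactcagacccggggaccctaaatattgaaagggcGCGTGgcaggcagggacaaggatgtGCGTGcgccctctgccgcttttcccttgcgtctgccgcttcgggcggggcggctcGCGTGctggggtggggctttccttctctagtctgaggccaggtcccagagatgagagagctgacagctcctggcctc
Tiparp: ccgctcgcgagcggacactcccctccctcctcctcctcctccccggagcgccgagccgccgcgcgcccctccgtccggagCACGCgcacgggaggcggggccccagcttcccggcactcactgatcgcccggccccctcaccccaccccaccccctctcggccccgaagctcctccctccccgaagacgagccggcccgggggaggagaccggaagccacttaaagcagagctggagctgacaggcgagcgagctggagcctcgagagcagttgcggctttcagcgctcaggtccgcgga
Nqo1: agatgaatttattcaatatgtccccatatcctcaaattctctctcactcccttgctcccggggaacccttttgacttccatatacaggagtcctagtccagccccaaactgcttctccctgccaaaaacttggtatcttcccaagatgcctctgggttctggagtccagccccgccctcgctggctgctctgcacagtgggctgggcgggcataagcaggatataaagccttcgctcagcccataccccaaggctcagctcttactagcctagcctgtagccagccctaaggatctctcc
The window held 3 matches in Ahrr, 1 each in Cyp1b1 and Tiparp and 0 in Nqo1. Of 32851 promoters of this length in the table, 10639 (32.4%) held at least 1 match. Of 13349 tested genes below the ceiling with a promoter there, 6345 (47.5%) had a match. A match is therefore a description of the sequence.

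Over all genes, 889 of 21966 (4.05%) were called between the groups at an adjusted p under 0.05, and 741 of the 21439 below the ceiling (3.46%), of which 388 were higher and 353 lower in the double-null arrays. Among the genes below the ceiling 29.2% had arrays that did not overlap between the groups. Other processing moved both the count and the split. With no background subtraction 117 were called higher and 55 lower. With Feature Extraction's own processed signals 171 were called higher and 49 lower, and with Cy3 alone, scaled to the 75th percentile of each array, 96 higher and 32 lower, where the median of all genes moved from -0.04 to -0.24. With slide as a random block (correlation within slides 0.588) 3 genes below the ceiling (0.014%) were called, Wdfy1 and D19Ertd409e higher and Lrmda lower. The count was 414 without Cyp1a1-null replicate 1, 340 without replicate 2 and 4301 without replicate 3 (4.93% of genes higher and 15.1% lower), and 134 without double-null replicate 1 and 418 without double-null replicate 2.

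Wdfy1 and D19Ertd409e were the genes called higher both in the fit without a slide term and with slide as a random block. Wdfy1, an endosomal protein of the FYVE family, had log ratios of 2.16 and 2.07 against 0.07, 0.06 and -0.09. The difference was 2.10 ± 0.17 (limma, adjusted p = 1.68e-05). D19Ertd409e stood at 1.07 and 1.00 against -0.48, -0.48 and -0.36, a difference of 1.47 ± 0.18. Within each group these genes varied by far less than the groups differed. Taok1, a kinase of the MAP3K type, stood at 1.24 and 1.01 against -0.45, -0.54 and -0.39, a difference of 1.59 ± 0.25. Tent5c, a poly(A) polymerase, stood at 1.31 and 1.55 against -0.18, -0.14 and 0.15, a difference of 1.48 ± 0.19. For both, the double-null oil array lay near its BP-treated counterparts, at 0.98 for Taok1 and 1.31 for Tent5c.

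The other genes named as higher were called with differences from 1.14 to 1.37. They were Herc1, a ubiquitin ligase, Scoc, a Golgi protein, Ep400, an ATPase of a histone acetyltransferase complex, Ptpre, a tyrosine phosphatase, Zfp871, Pira2, Sertad3, Scin, Acta2 and Stxbp3a, a partner of syntaxins. Pira2 encodes an activating immunoglobulin-like receptor of myeloid cells, and other members of its gene family could share its probe. Scin, which encodes the actin-severing protein adseverin, differed in kind from the others. It stood at 2.36 and 2.31 in the double-null arrays, at 1.06, 1.08 and 1.43 in the Cyp1a1-null arrays, at 0.07 in the double-null oil array and between -0.62 and -0.32 in the Cyp1a1-null oil arrays. Both BP-treated groups were above their oil arrays, and the double-null arrays were highest, by 1.15 ± 0.27 (limma, adjusted p = 0.026). The difference of the BP responses was 0.38 ± 0.47 and did not pass the test (adjusted p = 0.936). Averaging all probes of a gene ended the calls of Acta2 (0.14) and Ep400 (0.43). It kept those of Wdfy1, Taok1, Herc1, Ptpre and Zfp871 at smaller differences of 1.05, 0.79, 0.35, 0.79 and 0.63.

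On the other side Lrmda, a gene of melanocyte differentiation, was lowest. Its log ratios were -3.10 and -2.75 in the double-null arrays and 0.14, 0.23 and -0.07 in the Cyp1a1-null arrays, far apart. The difference was -3.02 ± 0.26 (limma, adjusted p = 2.1e-05), and the double-null oil array lay at -2.88. Cnp, the cyclic nucleotide phosphodiesterase of myelin, stood at -1.02 and -0.50 against 0.56, 0.69 and 0.53, a difference of -1.36 ± 0.23. Nhsl1 and Mrm2, a mitochondrial RNA methyltransferase, were called lower by -2.06 and -1.33. They stood at -2.79 and -2.04 in double-null replicate 2 and at 0.07 and -0.22 in replicate 1. Without double-null replicate 2 the differences were -0.63 for Nhsl1 and -0.42 for Mrm2, and neither was called.

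Several of the genes named as lower had the opposite sign when Cy3 was used alone, without the reference channel. Tagln, an actin-binding protein of smooth muscle, was lower by -1.85 in log ratio but 1.05 higher with Cy3 alone. Mchr1, a neuropeptide receptor, was lower by -1.73 but 2.12 higher with Cy3 alone. Dennd1b, a regulator of Rab GTPases (-1.33, but 0.58 with Cy3 alone), and Rubcn, an inhibitor of autophagy (-1.19, but 0.38 with Cy3 alone), did the same. Tmem163, Prm1, Snn and Ttyh1 were called lower by -1.16 to -1.20. The Cyp1b1-null oil arrays share a slide with Cyp1a1-null replicates 1 and 2. For Tagln they stood at 1.72 and 1.58, beside 1.71 and 1.49 in replicates 1 and 2 and 0.53 in replicate 3. For Mchr1, Dennd1b and Ttyh1 these oil arrays stood between 1.09 and 2.34, and Cyp1a1-null replicate 3 between 0.34 and 0.89. For Rubcn, Tmem163, Prm1 and Snn the oil arrays stood at 0.05 or below. The part of the slide was not tested. Averaging all probes ended the calls of Dennd1b (-0.36), Rubcn (-0.51), Tmem163 (-0.63) and Ttyh1 (-0.11), and moved Nhsl1 to -0.59, Tagln to -0.95, Prm1 to -0.77 and Snn to -0.67, all still called. Trmt61b, a tRNA methyltransferase, was well above background in all 3 Cyp1a1-null arrays and in neither double-null array, and its log ratio differed by -1.32 (limma, adjusted p = 0.000552). In the Cy3 signal, taken after both channels were normalized within and between arrays, it was 2.61-fold higher in the Cyp1a1-null group. This is the observed ratio, a different quantity from the log ratio, with double-null signals that were not well above background. The same ratio of Cy3 signal was 1.40-fold for Snph, 1.37-fold for Nts and 1.22-fold for Abcc6.

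**Figure D2:**
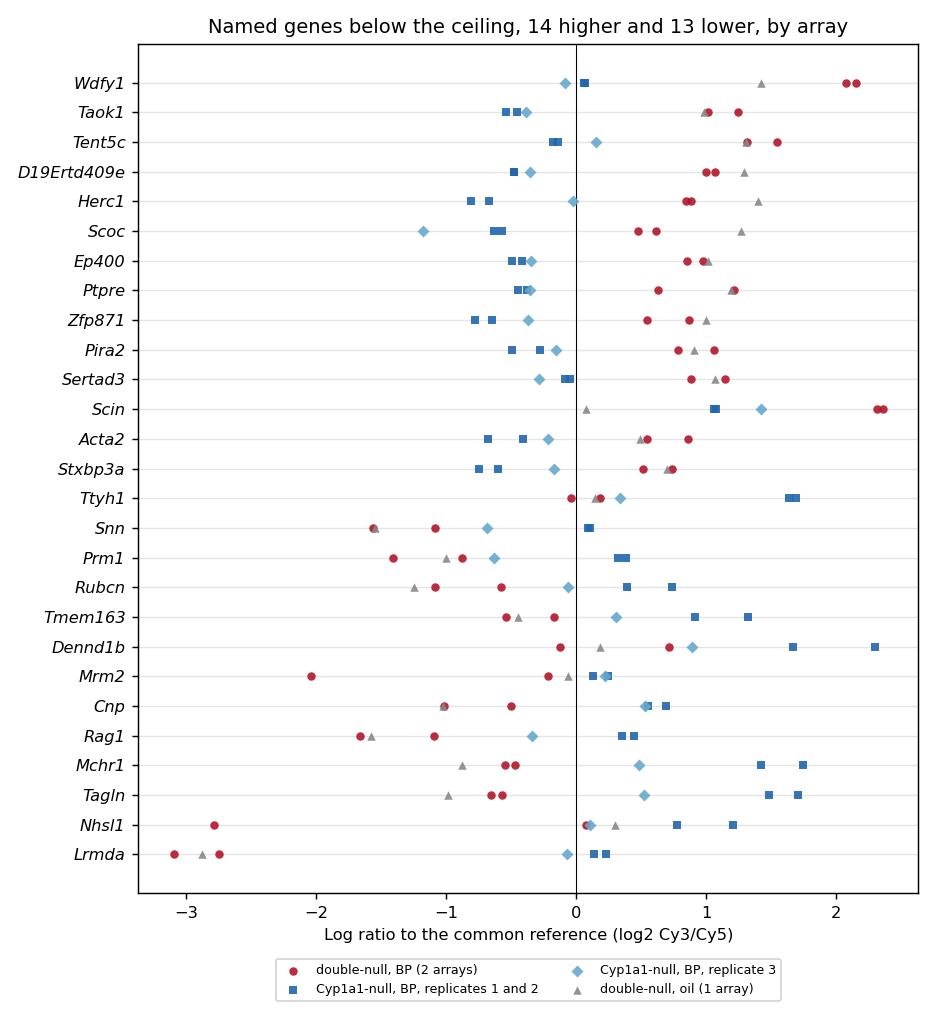
Log ratio to the common reference (log2 Cy3/Cy5) of 27 named genes below the ceiling, 14 higher and 13 lower, in the 2 double-null BP arrays (red), the 3 Cyp1a1-null BP arrays (blue, replicate 3 as a diamond) and the double-null oil array (grey triangle). In most genes the oil array lies with the BP-treated arrays of its genotype, and Scin, where it stands at 0.07 against 2.36 and 2.31, is an exception.

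B-lineage genes were lower in the double-null arrays. Of 17 pan-B genes below the ceiling, 7 were called lower and 0 higher, beside 1.65% of all genes called lower, and 0 were called with slide as a random block. All 17 had a negative difference, with a median of -0.81 against -0.04 over all genes. In 12 of the 17 the arrays did not overlap with the double-null lower, beside 14.8% of all genes. Pou2f2, the B cell transcription factor Oct-2, stood at -0.50 and -0.11 against 0.46, 0.48 and 0.49, and the groups did not overlap. The difference was -0.79 ± 0.13 (limma, adjusted p = 0.00237). Cxcr5, the chemokine receptor that guides B cells to follicles, differed by -1.06 ± 0.23, and Cd22, an inhibitory co-receptor, by -0.87 ± 0.24. Ralgps2, Spib, a transcription factor of the ETS family, and Fcer2a, the low-affinity IgE receptor, were also called, while Ms4a1 (-1.18), Fcrla (-1.16) and Cd79a (-0.95) missed the threshold, with adjusted p of 0.056, 0.0576 and 0.067.

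Genes of earlier B cell stages were also lower. Of 17 genes of lymphoid progenitors, pro-B and pre-B cells, a list that shares members such as Cd79a with the pan-B list, 4 were called lower and 0 higher, beside 1.65% of all genes called lower, and 0 were called with slide as a random block. All 17 differences were negative, as were 11950 of the 21439 over all genes, and the median was -0.55. Rag1, a subunit of the recombinase that assembles antigen receptor genes, stood at -1.66 and -1.09 against 0.35, 0.44 and -0.34, a difference of -1.53 ± 0.40 (limma, adjusted p = 0.0433). Vpreb3, a chaperone of the pre-B cell receptor, differed by -1.01 ± 0.25 and Irf4, a transcription factor of B cell maturation, by -1.01 ± 0.26. Averaging all probes ended the calls of Vpreb3 and Cd22. Igll1 and Pax5, in contrast, differed by only -0.10 and -0.13, with adjusted p of 0.779 and 0.481. The medians were also negative with Cy3 alone (-0.66 for the pan-B and -0.54 for the progenitor list) and with processed signals (-0.93 and -0.60). Over all genes below the ceiling the median was itself -0.24 with Cy3 alone, and -0.0006 with processed signals.

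The mean log ratio of the 17 pan-B genes was -0.53 and -0.31 in the double-null arrays and 0.56, 0.49 and 0.07 in the Cyp1a1-null arrays. The double-null oil array was lowest, at -0.67, and the Cyp1a1-null oil arrays lay at 0.43, -0.16 and -0.23, so BP-treated and oil-treated double-null marrow were on the same side. The median difference of the pan-B genes between the genotypes after oil was -0.82. In these bulk samples fewer cells of a type and less RNA per cell cannot be told apart. In the fit without Cyp1a1-null replicate 3, 15.1% of all genes were called lower. The number of pan-B genes called was 16 without Cyp1a1-null replicate 3, 4 without replicate 1 and 3 without replicate 2, 0 without double-null replicate 1 and 2 without double-null replicate 2, and 0 with slide as a random block. For the progenitor list these counts were 9, 1, 1, 0, 2 and 0.

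Of 19 T and NK cell genes 2 were called, both higher, beside 1.81% of all genes called higher, and the median was 0.19. The count was 0 with slide as a random block and with Cy3 alone, 1 with processed signals and without either double-null replicate, and 6 without Cyp1a1-null replicate 3. Of these 6 genes 4 were higher and 2 lower, in a fit where 4.93% of all genes were called higher and 15.1% lower. Il2rb, a receptor chain for IL-2 and IL-15, stood at 0.16 and 0.04 against -0.82, -0.89 and -1.08, a difference of 1.03 ± 0.17 (limma, adjusted p = 0.00268). Cd3d, a chain of the T cell receptor complex, rose by 0.91 ± 0.21, whereas its neighbours Cd3e and Cd3g had differences of -0.93 and -0.15 that did not pass the test. Of 21 megakaryocyte and platelet genes only Gp5, a subunit of the platelet receptor for von Willebrand factor, was called (-0.72 ± 0.16), beside 1.65% of all genes called lower. Of the 21 differences 18 were negative, as were 11950 of the 21439 over all genes, and the median was -0.64. The means of this list were 0.19 and 0.67 in the double-null arrays and 0.68, 1.30 and 0.87 in the Cyp1a1-null arrays. The groups did not overlap but nearly touched.

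**Figure D3:**
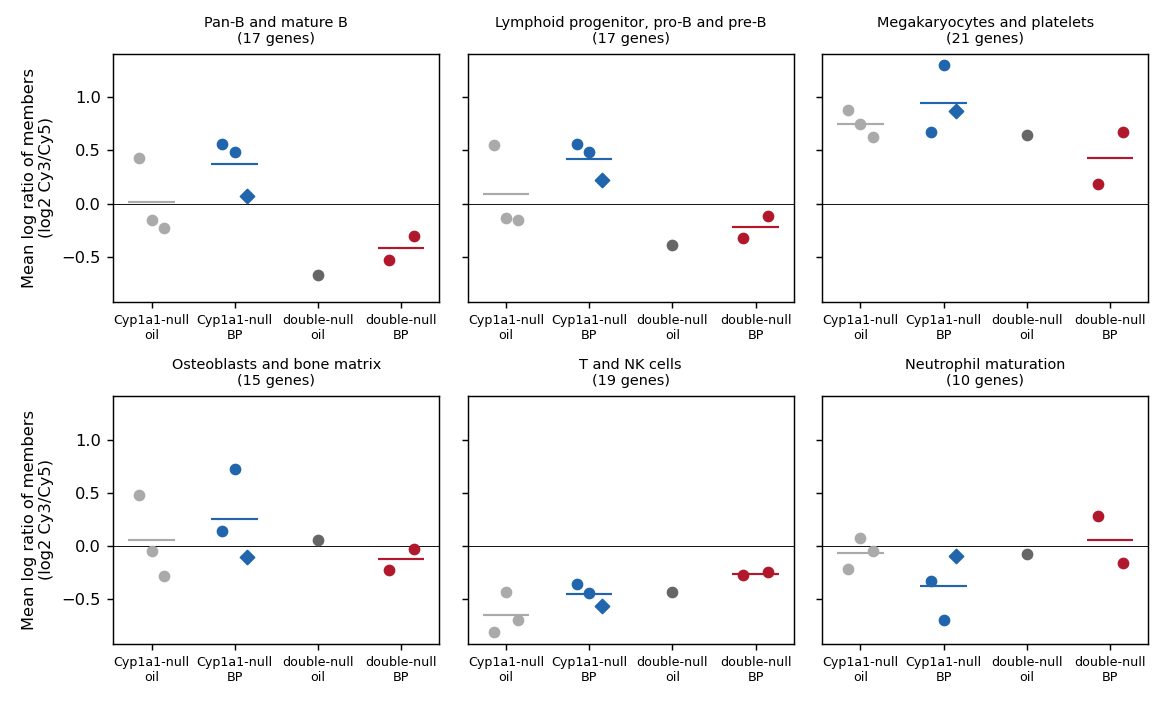
Mean log ratio (log2 Cy3/Cy5) of the members of 6 gene lists below the ceiling, 1 point per array, in the oil and BP groups of both genotypes, with lines at the means of groups with more than 1 array and a diamond for Cyp1a1-null BP replicate 3. For the pan-B list the double-null BP arrays lie at -0.53 and -0.31 beside the double-null oil array at -0.67, below all Cyp1a1-null BP arrays.

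Among stromal, bone and plasma cell genes all calls were lower, beside 1.65% of all genes called lower. Eng, the endoglin of stromal and endothelial cells, differed by -0.68 ± 0.15 and Lpl, lipoprotein lipase, by -0.76 ± 0.18, the 2 called of 17 stromal genes. The matrix genes Bgn (-0.47 ± 0.12) and Ibsp (-0.89 ± 0.23) were the 2 called of 15 osteoblast genes. Irf4, which is also in the progenitor list, and Prdm1 (-0.61 ± 0.17), the plasma cell repressor Blimp-1, were the 2 called of 8 plasma cell genes. The plasma cell list as a whole did not move to 1 side, with 4 differences positive and 4 negative. Its median was -0.15, or -0.02 with processed signals. All 3 lists had 0 calls with slide as a random block, with Cy3 alone, with processed signals and without double-null replicate 2. Without double-null replicate 1 the stromal and plasma cell lists had 0 and the osteoblast list 1, and without Cyp1a1-null replicate 3 they had 4, 3 and 5. Without Cyp1a1-null replicate 1 the stromal and osteoblast lists had 1 each, and without replicate 2 they had 2 and 1, while the plasma cell list had 0 in both. Of the 5 osteoblast calls without replicate 3, 1 was higher and 4 were lower. In that fit 4.93% of all genes were called higher and 15.1% lower. Averaging all probes ended the call of Bgn (-0.25). Single calls fell on Procr, the protein C receptor found on stem cells (-0.91, in a list of 18 genes with a median of 0.04), on the macrophage receptor Marco (-0.95), and on Cxcr2, the neutrophil chemokine receptor, which was higher by 0.69 but by 0.26, and not called, over the mean of its probes. Of 27 interferon-stimulated genes and of 10 genes of MHC class II presentation 0 were called. Of 12 skeletal muscle genes, 1 was called, Mylpf (0.66), beside 1.81% of all genes called higher.

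Of 29 genes that p53 switches on or that respond to DNA damage, 3 were called lower and 0 higher, beside 1.65% of all genes called lower, with a median of -0.11 that was 0.15 with Cy3 alone. With slide as a random block, with processed signals and with Cy3 alone 0 were called. Phlda3, a p53-induced repressor of Akt, stood at -0.09 and 0.45 in the double-null arrays and at 1.17, 1.67 and 1.11 in the Cyp1a1-null arrays. The groups did not overlap, and the Cyp1a1-null arrays stood above their oil arrays, which lay between -0.07 and 0.32. The difference was -1.14 ± 0.20 (limma, adjusted p = 0.00527). After oil the genotypes differed by -0.49 (adjusted p = 0.261), and the difference of the responses to BP was -0.44 ± 0.34 and did not pass the test (adjusted p = 0.853). Rrm2b, a p53-inducible subunit of ribonucleotide reductase, was lower by -0.83 ± 0.17 but 0.39 higher with Cy3 alone. Aen, a p53-induced nuclease, was lower by -0.53 ± 0.13, and averaging its probes gave -0.08. The classical targets Cdkn1a and Mdm2 differed by -0.16 (interval -0.66 to 0.34) and 0.17 (interval -0.09 to 0.42). Without Cyp1a1-null replicate 3 the list had 8 calls, 1 higher and 7 lower, beside 4.93% of all genes called higher and 15.1% lower in that fit. It had 2 calls without Cyp1a1-null replicate 1 and 2 without replicate 2. With no background subtraction it had 1, and with all 24 arrays 0.

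Other response genes gave isolated calls. Each count of 1 stands beside 1.81% of all genes called higher and 1.65% called lower. Txnrd1, a thioredoxin reductase under NRF2, was the 1 called of 13 NRF2 genes below the ceiling, higher by 0.48 ± 0.11 (limma, adjusted p = 0.0258). The median of that list was 0.32, with 11 of 13 differences positive, as were 9489 of the 21439 over all genes. Gstt1, a glutathione transferase, was higher by 0.46 but -0.44 with Cy3 alone, the only called gene of 20 that act with the CYP1 enzymes on xenobiotics. Bhlhe40, a repressor in the circadian clock, was higher by 0.79, and Jun, an immediate early gene, lower by -0.85. Scd1, a desaturase of fatty acids, was lower by -0.87, and Nfkb2 by -0.60.

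Most called differences had the same sign without BP. The difference between double-null and Cyp1a1-null marrow after oil shares slides with the BP comparison but no array. Its sign was the same as after BP in 669 of the 741 called genes (90.3%), against 58.3% of all genes below the ceiling. Of the 741, 269 were also called after oil in the same direction and 2 in the opposite direction, beside 1527 genes (7.13%) called after oil in all. The log ratios of the double-null oil array correlated at 0.62 and 0.61 with the BP arrays of its own slide, and at 0.40, 0.42 and 0.22 with the Cyp1a1-null BP arrays. The plot of both differences shows Wdfy1, Lrmda and Rag1 near the line of equal difference, while Nhsl1 lies away from it.

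**Figure D4:**
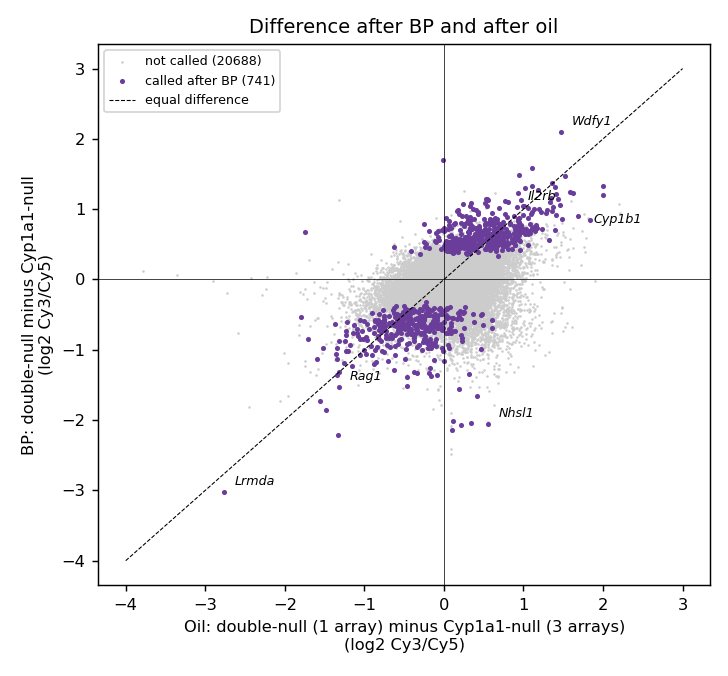
Difference between the genotypes after BP (double-null minus Cyp1a1-null, 2 against 3 arrays) against the same difference after oil (1 against 3 arrays), both in log2 Cy3/Cy5, 1 point per gene below the ceiling. Of the 741 called genes (purple), 669 have the same sign on both axes, and Lrmda lies near the dashed line of equal difference at the lower left.

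Subtracting oil from BP within slides takes out slide and any genotype difference that does not depend on BP. In this difference of responses 36 of 21902 genes (0.164%) were called, 27 higher and 9 lower, and 0 members of any list. The largest was Coro1c, a coronin that binds actin, with a difference of 3.81 ± 0.17 (limma, adjusted p = 7.12e-09). Its BP arrays stood at 0.06 and 0.16 in the double-null and between -0.12 and 0.08 in the Cyp1a1-null group, and the single double-null oil array at -3.71. In 26 of the 27 genes called higher that oil array was the lowest of all 23 arrays, and in 7 of the 9 called lower the highest. In 16 of the 36 it was not well above background. In the Cyp1a1-null group only BP replicate 3 shares a slide with its oil arrays, so within slides that response is the response of replicate 3, whose log ratios correlated at 0.27 and 0.31 with the other replicates. The comparison of responses thus rests on 1 double-null oil array and 1 Cyp1a1-null BP array, and their error is assumed to be that of the other groups.

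Other arrays labelled as lacking Cyp1b1 allowed a further look on different slides. Marrow of Cyp1b1-null mice after DMBA was set against WT marrow after DMBA, which shares no array and no slide with the BP comparison. Both Cyp1b1-null DMBA arrays shared a slide and the WT DMBA arrays lay on others, so genotype and slide cannot be told apart there either. Neither group is labelled as lacking Cyp1a1 in that comparison. There 306 of 21439 genes (1.43%) were called, the sign was the same as after BP in 414 of the 741 genes (55.9%, against 47.4% of all genes), and 22 were called in the same and 4 in the opposite direction. Wdfy1, Pira2 and Phlda3 were called in both. Wdfy1 differed by 0.81 (adjusted p = 0.0225), Pira2 by 1.31 (adjusted p = 0.00628) and Phlda3 by -1.59 (adjusted p = 0.000854). Phlda3 stood at 1.62, 1.64 and 1.57 in the WT DMBA arrays and at most at 0.05 in the Cyp1b1-null DMBA arrays, which did not overlap. Lrmda, in contrast, differed by only -0.01 there, and stood at -1.02 and -1.29 in the Cyp1b1-null oil arrays.

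A small group of genes also separated the other arrays by their Cyp1b1 label. Among these other arrays no slide held both labels, so label and slide cannot be told apart here either. Those labelled as lacking Cyp1b1 include the double-null oil array, which shares a slide with the double-null BP arrays. The shares given next are therefore no independent check of the calls. In 14 of the 388 genes called higher (3.61%) the 5 other arrays labelled as lacking Cyp1b1 all lay above the 13 other arrays, against 0.732% of all genes, and in 6 of the 353 called lower (1.70%) all lay below, against 0.121%. Those with a characterised name were Wdfy1, Pira2, Rcor1, a co-repressor, Reep3, Ndufa11, a subunit of respiratory complex I, Hk2, a hexokinase, Sirpa, the myeloid receptor of CD47, Bclaf1, Znhit1, Rab6a and Txnrd1 on the higher side. On the lower side they were Hvcn1, a proton channel of leukocytes, N4bp3, Smarca4, the ATPase of the BAF chromatin complex, Dnaaf5, Xrcc6, the Ku70 subunit of DNA end joining, and Xdh, xanthine dehydrogenase. Smarca4 stood at -0.69 and -0.63 in the double-null BP arrays, at -0.06 to 0.20 in the Cyp1a1-null BP arrays and between -1.31 and -0.77 in the 5 other arrays labelled as lacking Cyp1b1. Xdh, which lies on chromosome 17 as Cyp1b1 does, stood at -0.72 and -0.99 against 0.51, 0.10 and 0.07, and between -1.07 and -0.33 in those 5 arrays. Over the 23 arrays fitted, neither gene overlapped between the labels. Txnrd1 did, since double-null BP replicate 2 stood at 0.12 and WT oil replicate 2 at 0.13.

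**Figure D5:**
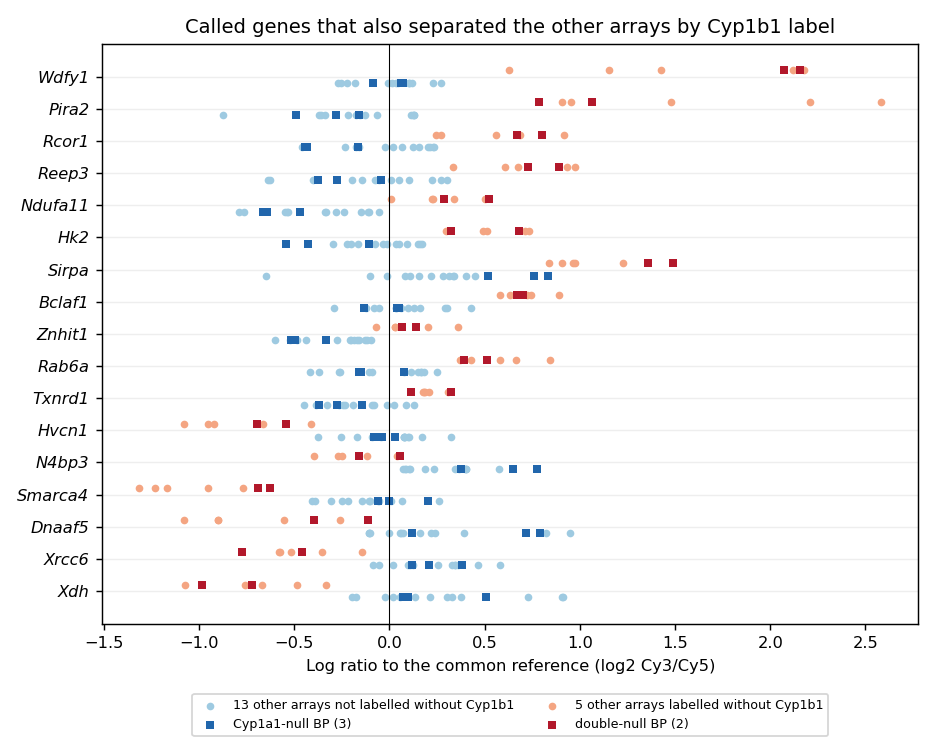
Log ratio to the common reference (log2 Cy3/Cy5) of 17 called genes with a characterised name in arrays labelled as lacking Cyp1b1 (upper row of each gene, double-null BP as red squares, the 5 others in orange) and in the other arrays (lower row, Cyp1a1-null BP as blue squares, the 13 others in light blue). For Wdfy1 the double-null BP arrays lie at 2.16 and 2.07, while the Cyp1a1-null BP arrays lie between -0.09 and 0.07.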

How the data were processed

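Marrow RNA was hybridised to Agilent mouse arrays read in 2 colours, with the sample in Cy3, the reference in Cy5 and no dye swap. Per the file headers the deposited files of each array hold intensity values of each spot and its background made by Feature Extraction, version 10.7.3.1 for the slide of Cyp1a1-null BP replicate 3 and 9.1.3.1 for the others, not normalized between arrays, and signals processed by that software. The authors' deposited table holds log2 values of differences between groups, and none per sample. limma is named, with no version, in the submitters' processing notes.

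Background was subtracted with normexp (offset 50) and ratios were normalized by loess within each array with limma 3.58.1 in R 4.3.3 (statmod 1.5.0). Outlier spots were left out, spots of 1 probe averaged, and the brightest probe of each gene over the 5 arrays kept. Probes were named with the table for GRCm38.p6 by accession (26888), file name (8429), symbol (5025) or synonym (832). A model with a mean for each of 10 groups was fitted to 23 arrays. WT oil replicate 1, whose log ratios spread far more than those of other arrays, was left out and is in no group compared. Adjustment of p-values was by Benjamini-Hochberg over every gene tested, with calls under 0.05. The number of arrays limits the precision. The difference of responses had slide as a fixed term. For 64 genes it could not be estimated. Replicate numbers were not used to pair the arrays in the main fit. Fits were tested on simulated data. For the difference between the groups the simulated arrays had no slide effect, so that test cannot speak to the effect of slide.

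Named were Cyp1a1, Cyp1b1, the 14 largest called differences on each side without overlap and well above background on all 5 arrays, the 4 largest bounds on each side, up to 4 called members of each of 37 gene lists with at least 2, and the 5 largest called differences of responses on each side. Genes with only a predicted name were left out (6 higher and 8 lower). Genes at the scanner's ceiling were left out after the data were seen (1 higher and 10 lower among those the rule gave), and single called members of lists were added. Bounds set each array of the dim group at no less than its lowest Cy3 signal well above background. For the genes named this floor lay below the signals of the dim group, so the values given are the observed ratios. They are open to dye bias. Members and lists were chosen with earlier results of these data known. The alternatives tried are given with their effect in the closing section. Some genes the rule gave are not reported here.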

Additional observations from a re-analysis of the deposited data

Results flagged for a closer look

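The difference of BP responses between the genotypes, taken within slides, was flagged because a test of the difference itself passed in 36 genes. Within slides the Cyp1a1-null response is that of BP replicate 3 alone, the only BP array of its group on a slide with its oil arrays. The 4 largest with a characterised name on the higher side were Coro1c (3.81), Olfr519 (2.39), Peg3 (2.36) and Crabp1 (2.35). In all of these the single double-null oil array was the lowest of 23 arrays, and it was not well above background for Olfr519, Peg3 and Crabp1. The 4 with a characterised name on the lower side were Snap25 (-1.41), Syce1 (-0.995), Atp6v0e2 (-0.98) and Clcn1 (-0.95). The oil array was the highest of 23 arrays in Snap25, Syce1 and Atp6v0e2. The part of these single arrays in the results was not tested.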

How the results depend on the processing

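Below the ceiling, where the count was 741, 172 genes were called with no background subtraction, 220 with processed signals, 128 with Cy3 alone, 3 with slide as a random block, 4301 with the Feature Extraction version as a term (which leaves out Cyp1a1-null replicate 3 in effect), 22 with all 24 arrays and 0 with only the 5 arrays, where 2122 genes had an unadjusted p under 0.05 in limma. Among the 741 were 169 of the 172, 145 of the 220, 32 of the 128 and 737 of the 4301. Over all tested genes these counts were 295, 329, 141, 16, 4496, 29 and 0 against 889. Leaving out 1 replicate gave 134 to 4301 calls below the ceiling and 186 to 4496 in all. The replicate block gave 1122 calls below the ceiling and 1274 in all. Arrays with the same replicate number had deviations correlated at -0.20 and 0.11. The deviations of the 2 double-null arrays mirror each other, so these values cannot decide whether replicate numbers pair the arrays. Cyp1b1 was higher in the double-null arrays in every setting run. It was called with the mean of its probes (1.02), the Feature Extraction version as a term (0.82), the replicate block (0.75) and the dimmer probe (1.35). Leaving out 1 replicate gave 0.47 to 0.92. The authors' deposited table, combined to the same difference, gave 1.86.

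The 36 differences of responses became 7 with no background subtraction, 9 with processed signals, 99 with no filter, 4 with a filter on all 5 arrays, 0 with Cy3 alone (157 genes at an unadjusted p under 0.05 in limma), 24 with the replicate block and 34 to 101 without 1 replicate. They could not be fitted with only the 5 arrays, only the treated groups or without Cyp1a1-null BP replicate 3. With Cy3 alone the sign turned for Dennd1b (0.58), Gstt1 (-0.44), Mchr1 (2.12), Rrm2b (0.39), Rubcn (0.38) and Tagln (1.05). Atp6v0e2 turned with no background subtraction (0.0078), processed signals (0.84) and Cy3 alone (0.097), and Clcn1 with processed signals (0.35) and Cy3 alone (0.0033). Over all named genes and alternatives of the BP comparison, 705 values kept their call and direction, 500 lost the call and 6 turned. Of the 705, 64 came from a scaling of brightness between arrays (Aquantile) that leaves log ratios unchanged. Another 64 came from the Feature Extraction version as a term, in effect the same fit as that without Cyp1a1-null replicate 3, also counted. Of the authors' deposited table, which has no call here, 42 differences lay within 1 standard error and 22 beyond it. The ceiling criterion and the dimmer probe were chosen after seeing the data. The causes of these changes were not tested.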

Other observations

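Called genes were spread over the chromosomes. Below the ceiling the share of tested genes called ran from 2.05% on chromosome 14 to 4.96% on chromosome 1, with 3.80% on chromosome 17, which carries Cyp1b1. Among the 50 tested genes on each side of Cyp1b1 6 were called, Hnrnpll, Lpin2, Memo1 and Thumpd2 higher and Trmt61b and Xdh lower, and among the 10 on each side 1, Hnrnpll (0.48). Among the 10 tested genes on each side of Cyp1a1 on chromosome 9, 0 were called, with differences from -0.58 to 0.16.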
